A study of Mus musculus with 4 samples.

Results

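Mast and basophil-like cells were picked from 2 single-cell libraries of cultured mouse T-cell progenitors by their transcripts. A kept cell had at least 500 genes and under 10% of its unique molecular identifiers (UMIs, counts of captured transcript molecules) from mitochondrial genes. A kept cell was a member when at least 3 of 6 marker genes, Mcpt8, Ms4a2, Fcer1a, Prss34, Gata2 and Hdc, each had at least 2 UMIs. This gave 135 members among 19546 kept cells, 46 of 9332 in experiment 1 and 89 of 10214 in experiment 2. The counts of these cells chose them, so their levels against the remaining cells are a description and carry no test.

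Mast cells and basophils are granule-bearing cells that carry the high-affinity IgE receptor, whose alpha, beta and gamma chains are encoded by Fcer1a, Ms4a2 and Fcer1g. They store histamine, made from histidine by the enzyme of Hdc, together with proteases on a proteoglycan core, and release them when IgE on the receptor is crosslinked. Mouse basophils are known for the proteases of Mcpt8 and Prss34, and mouse mast cells for chymases such as those of Mcpt1, Mcpt4 and Cma1, for the stem cell factor receptor Kit and for carboxypeptidase A3 (Cpa3). Both arise from marrow progenitors that use the transcription factor Gata2, while T-lineage entry runs through Notch signalling, Tcf7 and Gata3.

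The study asked what the transcription factors Runx1 and Runx3 do in the earliest T-cell progenitors. Multipotent bone marrow progenitors carrying a Bcl2 transgene were grown on OP9-Dll1, a stromal line that presents a Notch ligand, with IL-7 and Flt3-ligand at 10 ng/ml each, so every group shared the transgene, the stroma and the cytokines. In the overexpression arm, marrow of B6.Bcl2 mice aged 8 to 10 weeks received MSCV-Runx1-mCherry or the empty MSCV-mCherry vector on day 2, and live lineage-negative mCherry+ CD45+ cells were sorted on day 4 or 6. In the knockout arm, marrow of B6.Cas9;Bcl2 mice received E42-gRunx1-hNGFR and E42-gRunx3-mTurquoise, with 3 guide pairs per gene, or control vectors whose guides target luciferase. Live lineage-negative mTurquoise+ hNGFR+ CD45+ cells of that arm were sorted on day 5 or 8. Sorted replicates, each stained with its own hashtag antibody, were pooled in equal numbers and run on 10x Chromium v3. The labels give 4 to 5 days of culture for experiment 1 and 4 to 8 days for experiment 2, and each experiment held 8 hashtags. No label ties a hashtag to a vector or a day, so the hashtags are samples of unknown condition, and each experiment is 1 library. No p-value is given for that reason: intervals are 95% and cover counting error only. The lineage-negative gate, whose antibodies are not named, can set which granulocytes are present and how many.

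The kept cells held a median of 25246 UMIs in experiment 1 and 26647.5 in experiment 2, and 635 and 342 barcodes were not kept. Members held a median of 29700.5 UMIs in experiment 1 (6779 to 77654) against 25239 in the other kept cells. In experiment 2 members were the shallower group, with 18016 (2943 to 89530) in members against 26688. The libraries shared 39 barcodes, 34 of them kept, and 0 of these were members in either. HTODemux, which assigns each cell to its hashtag, called 8 of 46 members (17.4%) in experiment 1 doublets with more than 1 hashtag, against 7.39% of the other cells. In experiment 2 it called 22 of 89 (24.7%), against 20.5%. The doublet members held a median of 54236 and 42244 UMIs, against 28491 and 16647 in members with a single hashtag.

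Mcpt8 and Prss34 gave most of the members' UMIs of the rule markers. Mcpt8 (ENSMUSG00000022157) lies on chromosome 14 at 56082163-56085499 (GRCm38), in a cluster of protease genes that runs from Cma1 at 55941451-55944675 over Mcpt1 at 56017964-56020391, Mcpt4 at 56059744-56062310 and Ctsg at 56099885-56102574 to Gzmb at 56258836-56262334. Prss34 (ENSMUSG00000056399) lies apart on chromosome 17 at 25298394-25300168. The 250 bases before a RefSeq transcript start (GRCm38.p6) are printed 5′ to 3′ on the gene's strand. They are given for Mcpt8 and Prss34, the leading basophil proteases, and for Cpa3, Mcpt1 and Mcpt4, the leading mast cell proteases. Members differed in their levels of these genes. Capitals mark GATAA, the core of a GATA factor motif, and TGTGGT, the core of a Runx motif, on either strand (as TTATC and ACCACA on the other); the motifs do not overlap each other.
Mcpt8, chr14:56085198-56085447, minus strand: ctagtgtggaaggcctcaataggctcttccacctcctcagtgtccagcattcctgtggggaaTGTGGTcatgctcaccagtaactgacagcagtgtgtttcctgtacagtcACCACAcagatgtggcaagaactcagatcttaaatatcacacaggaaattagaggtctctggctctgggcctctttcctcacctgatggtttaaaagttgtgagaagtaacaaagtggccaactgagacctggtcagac
Prss34, chr17:25298144-25298393, plus strand: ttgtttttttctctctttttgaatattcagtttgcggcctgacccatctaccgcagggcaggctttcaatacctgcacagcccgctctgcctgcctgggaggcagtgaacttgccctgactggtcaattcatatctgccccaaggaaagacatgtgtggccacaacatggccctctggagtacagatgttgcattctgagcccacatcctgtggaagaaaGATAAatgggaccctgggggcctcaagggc
Cpa3, chr3:20242182-20242431, minus strand: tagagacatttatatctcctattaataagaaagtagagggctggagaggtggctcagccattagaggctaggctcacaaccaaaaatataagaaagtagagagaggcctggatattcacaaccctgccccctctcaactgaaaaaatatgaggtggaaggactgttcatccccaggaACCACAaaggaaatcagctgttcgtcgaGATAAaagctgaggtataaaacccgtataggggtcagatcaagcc
Mcpt1, chr14:56017714-56017963, plus strand: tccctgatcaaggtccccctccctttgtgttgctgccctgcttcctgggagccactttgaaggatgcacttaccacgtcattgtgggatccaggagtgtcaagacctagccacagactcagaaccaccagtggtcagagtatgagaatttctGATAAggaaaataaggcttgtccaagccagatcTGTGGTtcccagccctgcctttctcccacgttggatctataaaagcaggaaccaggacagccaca
Mcpt4, chr14:56062311-56062560, minus strand: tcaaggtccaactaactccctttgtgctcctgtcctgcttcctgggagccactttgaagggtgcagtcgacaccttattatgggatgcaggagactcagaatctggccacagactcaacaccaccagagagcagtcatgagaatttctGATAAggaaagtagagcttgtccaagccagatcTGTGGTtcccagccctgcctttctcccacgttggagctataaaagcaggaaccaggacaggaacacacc
The Mcpt8 window held TGTGGT at 188 and 139 bases before the start and GATAA nowhere, and the Prss34 window held 1 GATAA at 30 bases before the start and no TGTGGT. Cpa3, Mcpt1 and Mcpt4 each held 1 GATAA and 1 TGTGGT. The Mcpt8 window lies inside the annotated span of the gene and the Cpa3 window overlaps it. In Mcpt1 and Mcpt4 the 2 motifs stood 33 bases apart, inside near-identical sequence whose longest shared run was 53 bases, so they are not independent matches.

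Over windows from 250 bases before to 50 bases after the start, GATAA was present in 7 of the 10 genes with a promoter in the table (70.0%) from a list of mast cell proteases and the mast cell receptors Mrgprb1 and Mrgprb2, both receptors among the 7, and in 3 of the 6 rule markers (50.0%). Among all 27025 genes with a promoter in the table, 28.4% held it. TGTGGT was present in 8 of the 10 genes of that list, Mrgprb2 among them, and in 2 of the 6 rule markers, against 18.9% of all genes. A match is a run of letters and no measured binding.

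Most kept cells reached no marker. In experiment 1, 7741 kept cells reached 0 markers, 1521 reached 1 and 24 reached 2, while 13, 13, 16 and 4 reached 3, 4, 5 and 6. In experiment 2, 8798 reached 0, 1287 reached 1 and 40 reached 2, while 14, 19, 30 and 26 reached 3 to 6. Just outside the rule, the cells with 2 markers held Cpa3 at 31.0 CPM (UMIs of the gene per 1000000 UMIs summed over a group) in experiment 1 and 145 CPM in experiment 2. Just inside it, the cells with 3 markers held 654 and 194 CPM. In experiment 1, 1 of those 13 cells held 134 UMIs of Cpa3, more than the others together. Cpa3 did not rise evenly with the markers: cells with 0, 1 and 4 markers held 144, 164 and 200 CPM in experiment 1. In experiment 2 they held 97.5, 127 and 592 CPM. Of 14 basophil and mast genes outside the rule, a member had a median of 8 with at least 2 UMIs in both experiments, against 4 and 3 in the other kept cells.

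**Figure D1:**
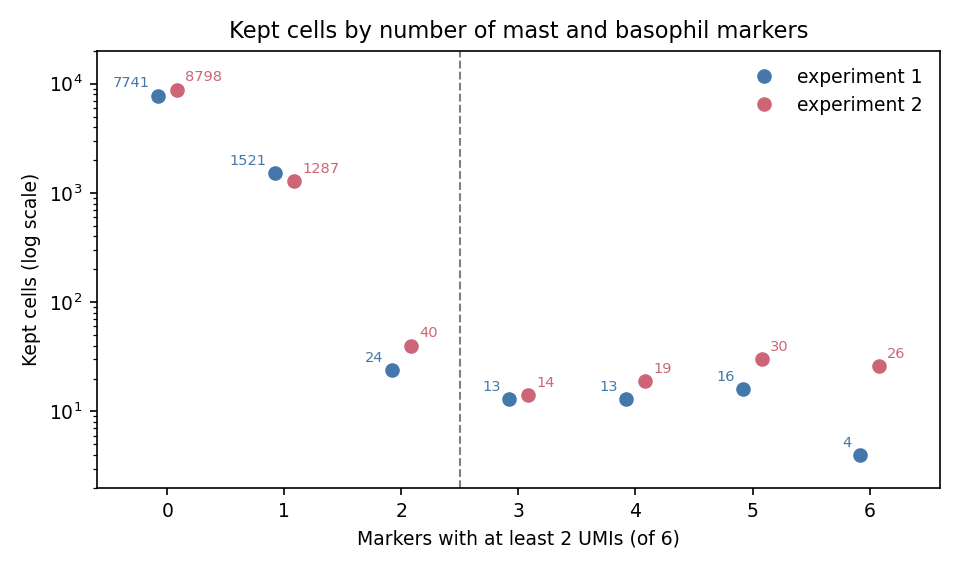
Number of kept cells (log scale) by how many of the 6 rule markers reached at least 2 UMIs, for experiment 1 and experiment 2, with the count beside each point and the rule's threshold as a dashed line. The 24 and 40 cells with 2 markers lie between the far larger numbers with 0 or 1 and the 46 and 89 members to the right of the line.

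Mcpt8 was the most abundant marker. Members had it at a lowest, median and highest UMI count per cell of 0, 84.5 and 647 in experiment 1 and 0, 281 and 788 in experiment 2, and 44 of 46 and 87 of 89 members had at least 2. Its level was 5528 and 10671 CPM in members against 26.7 and 17.9 CPM in the other kept cells. Prss34, the second basophil protease, was uneven. Its median was 0 UMIs in experiment 1 (highest 465) and 235 in experiment 2 (highest 928), and 16 of 46 and 72 of 89 members had at least 2. Prss34 stood at 2017 and 8745 CPM in members and at 0.0576 and 0.77 CPM in the other cells.

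The IgE receptor beta chain Ms4a2 had at least 2 UMIs in 41 and 69 members and stood at 357 and 286 CPM. The alpha chain Fcer1a reached 2 UMIs in 11 members of experiment 1 and 40 of experiment 2, at 74.5 and 132 CPM. In experiment 1, 34 of 46 members had no UMI of the alpha chain and entered the rule by other markers. Histidine decarboxylase, Hdc, was at 604 and 403 CPM, and Gata2 at 240 and 246 CPM. In the other kept cells Ms4a2 was at 0.165 and 0.14 CPM, Fcer1a at 0.0494 and 0.0886, Gata2 at 2.26 and 1.97 CPM and Hdc at 2.69 and 5.43 CPM.

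Mcpt8 was also present outside the members. It had at least 2 UMIs in 1395 of the other kept cells of experiment 1 (15.0%) and 984 of experiment 2 (9.72%), up to 34 and 188 UMIs a cell. By class, Mcpt8 was at 34.2 and 24.9 CPM in cells meeting a T-lineage list (at least 2 UMIs of 3 of 10 genes), at 31.6 and 22.3 CPM in those meeting a granulocyte progenitor list and at 15.0 and 10.7 CPM in cells of neither. Median depth in these classes was 26227, 36287 and 23054 UMIs in experiment 1 and 26683.5, 39002.5 and 25816 in experiment 2. The part of free transcripts and of depth in these values was not tested. Of the other cells, 1384 and 952 had at least 2 UMIs of Mcpt8 and of no other marker, and the rule of 3 markers left them out.

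Against all other kept cells, 191 of 5491 genes compared (3.48%) were at least 2-fold higher in members of experiment 1 and 171 (3.11%) at least 2-fold lower, when genes averaging 20 CPM or more over members and other cells were counted. In experiment 2, 234 of 5195 (4.5%) were higher and 131 (2.52%) lower, or 225 lower over cells with a single hashtag. Of the 4962 genes compared in both, 129 were higher in both and 70 lower in both, and 0 lay in opposite directions. The 129 are 67.5% of the higher genes of experiment 1 and 55.1% of those of experiment 2, and the 70 are 40.9% and 53.4% of the lower genes. A gene close to 0 in the other cells passes this filter only through its level in members, so the counts by list below describe the listed genes that passed and test nothing.

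Among basophil and mast genes outside the rule, 8 of the 11 that passed (of 14 listed) were past 2-fold upwards in experiment 1 and 10 of 12 in experiment 2, with 0 lower. Their median log2 ratios were 2.44 and 2.66, against -0.04 and -0.06 over all genes compared. Cpa3, the mast cell carboxypeptidase, stood at 800 CPM against 148 in experiment 1, a ratio of 5.42 (5.11 to 5.75), and at 777 against 102 in experiment 2, 7.58 (7.22 to 7.96). Cyp11a1, a steroidogenic enzyme found in mast cells and basophils, was at 283 and 344 CPM against 5.29 and 3.35. The receptor Cd200r3 of these cells was at 59.2 and 140 CPM against 1.92 and 0.365.

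Several receptors for growth factors of the lineage were also high. Csf2rb, the shared beta chain for IL-3, IL-5 and GM-CSF, was at 276 and 178 CPM against 17.3 and 22.3, and its relative Csf2rb2 was 33.0-fold and 14.2-fold higher. The IL-3 receptor alpha chain Il3ra was at 25.8 and 55.7 CPM against 8.67 and 10.6, below the filter in experiment 1. Il1rl1, the receptor for IL-33, was at 39.7 and 17.4 CPM against 0.559 and 0.406, below the filter in experiment 2. Kit was not past 2-fold, at 95.4 and 31.2 CPM against 68.4 and 34.5, ratios of 1.4 (1.17 to 1.65) and 0.906 (0.705 to 1.15). Of the receptor list, 6 of 13 were higher and 1 (Ccr2) lower in experiment 1, and 12 of 16 higher and 1 (Il4ra) lower in experiment 2.

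Signalling genes downstream of the IgE receptor differed little. Of the 14 that passed among 16 listed, 0 were past 2-fold in experiment 1. In experiment 2, Fcer1g (the receptor's gamma chain) and the adaptor Lat2 were higher and Plcg2 was lower. Fcer1g is shared with other myeloid receptors and was at 490 against 314 CPM in experiment 1 and at 1319 against 318 in experiment 2. The kinases Lyn and Syk were at 1.04 and 0.652 times the other cells' level in experiment 1 and at 1.03 and 0.836 times in experiment 2.

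Granule genes were high for the matrix and the amine transporter. Srgn, the core protein of the granule proteoglycan, was at 2557 and 1990 CPM against 695 and 637. Slc18a2, which loads histamine and serotonin into vesicles, was at 72.4 and 54.4 CPM against 4.92 and 1.89. The granule membrane protein Cd63, whose surface exposure is used to read basophil activation, was at 1144 and 1877 CPM against 73.9 and 158. With the syntaxin Stx3, these were the 4 of 11 genes past 2-fold in the packaging list, in both experiments.

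Of the list of mast cell proteases and the 2 Mrgprb receptors, all 6 that passed (of 13) in experiment 1 and all 7 in experiment 2 were higher. Ctsg, cathepsin G, was at 2161 and 2329 CPM against 124 and 151. Gzmb, granzyme B, was at 868 and 1163 CPM against 113 and 122. Mcpt1 was at 1706 and 1624 CPM, Mcpt4 at 463 in each, and Cma1 at 54.3 and 40.1 CPM. The tryptase genes Tpsb2 and Tpsab1 had 0 UMIs in members and in the other cells of both experiments, which allows up to 2.09 and 1.34 CPM in the members (3 counts over their summed UMIs). Near-identical copies in this cluster (Mcpt1, Mcpt2, Mcpt4 and Mcpt9) may exchange or lose reads, so the split among them is uncertain, and Mcpt9 at 0 UMIs is not shown to be absent.

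Of the genes for lipid mediators, those of the first leukotriene steps were high. Alox5ap and Alox5 were at 506 and 51.5 CPM in members of experiment 1 and at 690 and 101 in those of experiment 2, against 123 and 2.63, and 140 and 1.86. Of the 5 eicosanoid genes that passed (of 10), these were the 2 that were higher, and Mgst2 was the 1 that was lower. Among cytokines, Il4, a known product of basophils, was at 24.4 and 11.6 CPM against 1.19 and 0.586, below the filter in both experiments. It had at least 2 UMIs in 10 and 4 members.

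Among transcription factors, Cebpa, Cebpb, Cebpe and Lmo4 were at least 2-fold higher in both experiments, and Gata3, Irf8 and Tcf7 at least 2-fold lower. The myeloid factor Cebpa was at 74.5 and 100 CPM against 5.34 and 7.8. Gata1, which acts in mast cells, basophils, eosinophils and the erythroid lineage, was at 26.5 and 28.5 CPM against 0.592 and 0.651, below the filter. Spi1, the myeloid factor PU.1, differed little, at 208 and 219 CPM against 160 and 205. In all, 6 of 19 factors were higher and 3 lower in experiment 1, and 4 of 18 higher and 3 lower in experiment 2.

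Runx1 was 1.87-fold higher in members of experiment 1 (1.65 to 2.12; 179 against 95.7 CPM) and 1.92-fold higher in those of experiment 2 (1.71 to 2.15; 137 against 71.2 CPM). Runx3 was at 0.518 and 0.566 times the level of the other cells, 77.3 against 149 CPM and 66.9 against 118. Neither passed 2-fold in either experiment. Bcl2 was at 0.27 times in experiment 1 (28.6 against 106 CPM) and 0.485 times in experiment 2 (50.0 against 103). Among the other cells, those meeting the T-lineage list held it at 137 and 162 CPM. Those meeting the granulocyte progenitor list held 59.6 and 55.0 CPM and cells of neither 59.2 and 46.7. In experiment 2 members were thus near the cells outside the T-lineage class. These counts do not separate a vector's or a transgene's transcript from that of the gene, and the share of members from each vector is not known.

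T-lineage genes were low. Of the T-lineage list, all 6 that passed (of 10) in experiment 1 and all 7 in experiment 2 were at least 2-fold lower, with median log2 ratios of -3.09 and -1.56. Tcf7, the first T-lineage factor induced by Notch, was at 12.5 and 26.8 CPM against 165 and 101. Il2ra, the surface marker CD25 of the second thymic stage, was at 28.6 and 50.8 against 289 and 147. The other cells include those meeting the T-lineage list. In cells meeting the granulocyte progenitor list, Tcf7 was at 47.3 and 38.9 CPM and Il2ra at 77.5 and 53.5. In cells of neither class they were at 60.5 and 27.6, and at 71.1 and 16.3. Summed over all members, Il2ra was thus not low in experiment 2 against cells of neither class. However, 9 of the 22 hashtag doublets among these members had at least 2 UMIs of Il2ra, against 1 of 66 with a single hashtag. Cd3g, Cd3e and Bcl11b were at 0 UMIs in members of experiment 1. In experiment 2, Cd3g was at 48.2 CPM against 190, and 1 cell, a hashtag doublet, held 51.9% of these UMIs. It reached 2 UMIs in 3 of the 22 doublet members and in 1 of the 66 with a single hashtag. The list's summed level was 92.6 and 270 CPM in members against 858 and 789. It ran from 0 to 986 CPM over the members of experiment 1 (median 32.1) and from 0 to 2280 over those of experiment 2 (median 34.1). The Notch targets Hes1 and Dtx1 were at 0.427 and 0.243 times the other cells' level in experiment 1, and at 0.353 and 0.385 times in experiment 2. Notch1 was at 0.334 and 0.547 times. Of 8 listed Notch receptors and targets, 4 passed in experiment 1, and Hes1, Dtx1 and Notch1 were the 3 past 2-fold, all lower. In experiment 2, 3 passed, and Dtx1 lay below the filter. Hes1 was lower there, but the target Nrarp was at least 2-fold higher.

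Cell cycle genes were near the level of the other cells: 0 of 12 passed 2-fold in either direction in either experiment, with median log2 ratios of -0.00 and -0.07. Mki67 was at 273 and 194 CPM in members against 255 and 189 in the other cells.

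**Figure D2:**
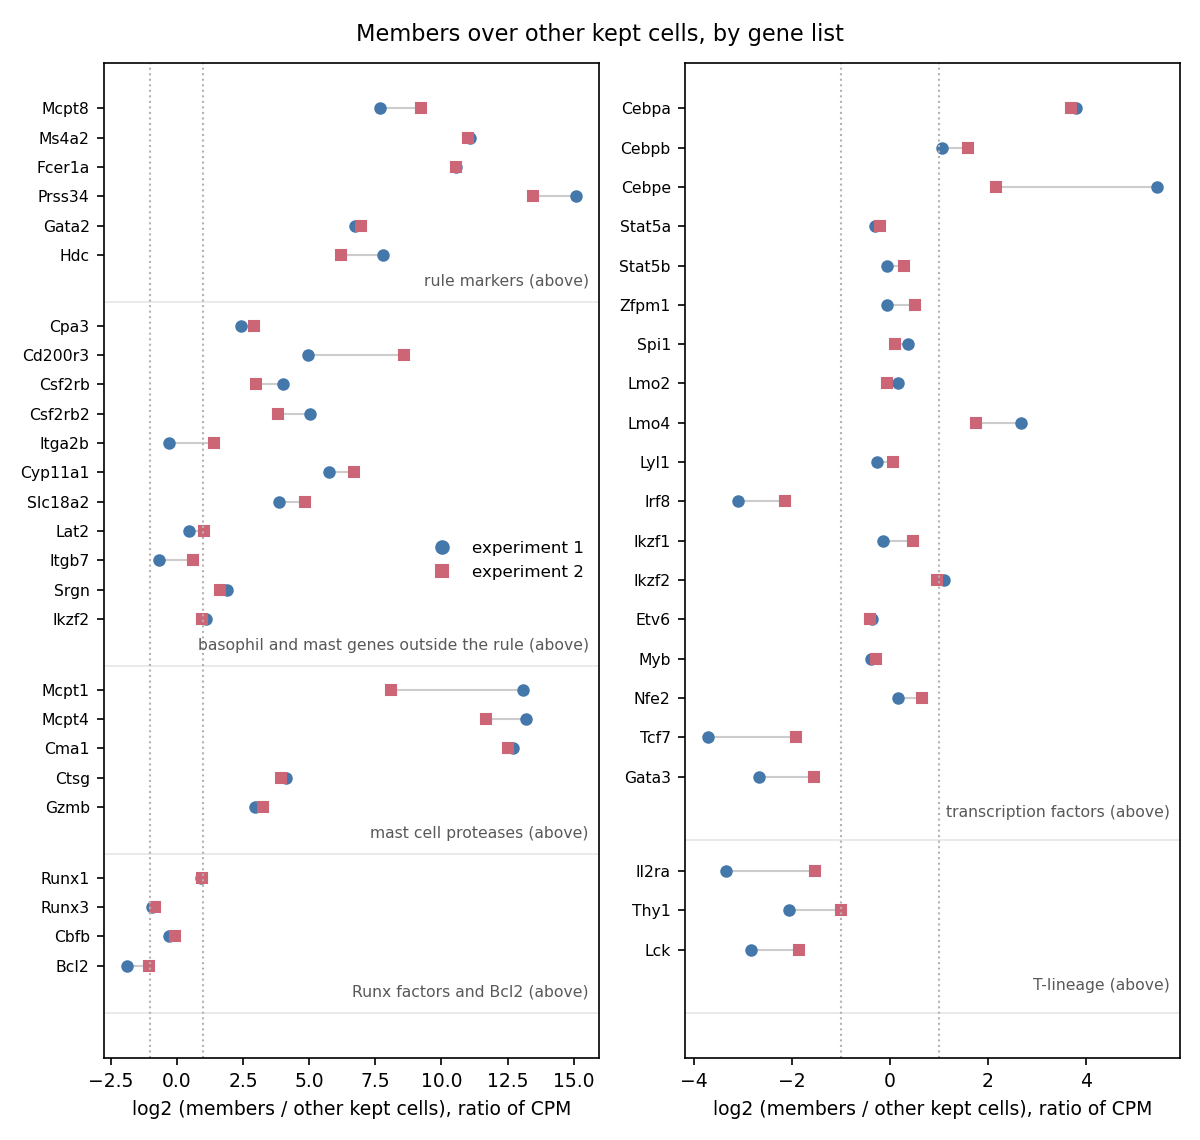
Ratio of CPM in members to CPM in the other kept cells (log2 axis, dotted lines at 2-fold) for listed genes that passed the filter in both experiments, as circles for experiment 1 and squares for experiment 2. Rule markers and proteases lie to the right, most other basophil genes too, T-lineage genes such as Tcf7 and Gata3 to the left, and Runx1 and Runx3 within 2-fold on either side.

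Among genes with a mean of 50 CPM or more, the 12 highest by the smaller of the 2 experiments' ratios, apart from rule markers and listed genes, were led by Rnase12, at 104 and 142 CPM against 0.119 and 0.358. Cd55, which protects cells from complement, was at 182 and 106 CPM against 0.712 and 0.726. Fam46a was 29.0-fold and 12.1-fold higher, Anxa1 33.3-fold and 10.3-fold, and Ms4a3, next to Ms4a2 on chromosome 19 and a marker of granulocyte and monocyte progenitors, 13.5-fold and 10.2-fold. The other cells that met the granulocyte progenitor list held Ms4a3 at 474 and 452 CPM, against 347 and 456 in members. Id1, Ap3s1, Ero1l, Nt5c3, Rab44 and 4930519L02Rik were also among the 12, between 3.72-fold and 5.65-fold. The 8 lowest by the same rule were Gzma, Prss2, Trbc2, Tcrg-C2, Nrgn, Bex6, Tmem121 and Ifi203. Gzma, granzyme A, stood at 136 and 142 CPM against 1239 and 1094, and Trbc2, a T-cell receptor beta constant gene, at 119 and 217 CPM against 734 and 679.

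Markers of other cell types were present in some members. Granulocyte progenitor genes (at least 2 UMIs of 3 of Mpo, Elane, Prtn3 and Ctsg) were met by 18 members of experiment 1 (39.1%) and 25 of experiment 2 (28.1%), against 3.18% and 5.81% of the other cells. Within that list Mpo, myeloperoxidase, was at 600 and 801 CPM against 46.2 and 86.0. Elane, neutrophil elastase, was at 39.0 and 60.7 CPM against 34.6 and 104. Prtn3, proteinase 3, was at 259 and 202 CPM, against 2289 and 2396 in the other cells that met the list. Those cells held Mpo at 816 and 899 CPM and Elane at 707 and 1170. They held Ctsg at 980 and 998 CPM, against 2161 and 2329 in members. The T-lineage list was met by 3 and 9 members, 2 and 7 of them hashtag doublets, and the dendritic list by 3 and 8, of which 3 and 5 were doublets. The neutrophil list was met by 0 and 1 members. The part of mixed droplets in the T-lineage and dendritic values was not tested.

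Members differed from each other in their proteases, and the patterns named here were set after their values were seen. A cell had the Prg2 pattern with at least 100 UMIs of Prg2. Of the rest, a cell had the Prss34 pattern with at least 2 UMIs of Prss34, and the chymase pattern with at least 10 UMIs over Mcpt1, Mcpt2, Mcpt4 and Cma1. The cuts themselves set how Prg2, Prss34 and these chymase genes differ between patterns, so the levels of those genes below describe the cuts. In experiment 1, 14 members (30.4%) had the Prss34 pattern, 9 (19.6%) the chymase pattern, 4 (8.7%) the Prg2 pattern and 19 (41.3%) none. In experiment 2, 69 (77.5%) had the Prss34 pattern, 5 (5.62%) the chymase pattern, 2 (2.25%) the Prg2 pattern and 12 (13.5%) none. Prss34 and chymases met in 0 members of experiment 1 and in 1 of experiment 2, a hashtag doublet.

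Cells of the Prss34 pattern also held Ctsg and Mpo, 2 of the 4 granulocyte progenitor genes. Mcpt8 was at 9724 and 14287 CPM and Prss34 at 4979 and 12498 CPM. Ctsg was at 3162 and 3084 CPM, Mpo at 1184 and 1024, Ms4a3 at 631 and 592 and Cebpa at 152 and 131. Kit was low, at 31.9 and 14.7 CPM. Mcpt1, kept low by the cut, was at 0 and 3.19 CPM and Mitf, a factor known for mast cell genes, at 0 in both. Of these cells, 6 of 14 and 16 of 69 were hashtag doublets, against 1 of 9 and 0 of 5 of the chymase pattern.

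Cells of the chymase pattern were led by other proteases. Mcpt1 was at 17726 and 40382 CPM, Mcpt4 at 4804 and 11354, Cpa3 at 2894 and 2300 and Gzmb at 5050 and 7399. Cpa3 and Gzmb were not confined to this pattern. In the Prss34 pattern Cpa3 was at 1060 and 903 CPM and Gzmb at 83.3 and 792. In the chymase pattern Kit was at 427 and 222 CPM, and Fcer1a at 289 and 789. Prss34, Ms4a3, Cebpa, Ccl6 and Rnase12 were at 0 UMIs in all 14 of them, Mpo at 7.24 and 0 CPM and Ctsg at 745 and 44.4. Their Mcpt8 was lower than in the Prss34 pattern but far above the other kept cells, at 5368 and 3288 CPM. Their median depth was 14088 and 16796 UMIs, against 35651 and 16580 in the Prss34 pattern, so zeros in experiment 1 were read at a shallower depth.

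Cells of the Prg2 pattern went against the name mast or basophil. Prg2 and Prg3, the major basic proteins of eosinophils, were at 21146 and 5930 CPM in the 4 cells of experiment 1 and at 53936 and 5559 in the 2 of experiment 2. The eosinophil peroxidase Epx was at 702 and 607 CPM. Ctsg was at 2850 and 2403 CPM and Mpo at 873 and 1189, near their levels in the Prss34 pattern. Mcpt8 was at 1318 and 3568 CPM in the Prg2 pattern, and Fcer1a and Gzmb were at 0. The experiment 2 levels of Ctsg, Mpo and Mcpt8 rest on 1 cell, a hashtag doublet with 98, 48 and 144 UMIs of them. The other cell held 1, 1 and 3. All but 1 of the 7 kept cells of this pattern, 4 of 4 and 2 of 3, were members, so the rule takes in cells led by eosinophil genes. They are described by those leading genes and left among the members.

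The members of no pattern held less Mcpt8 than the cells of the Prss34 and chymase patterns. It was at 2523 and 1617 CPM, Hdc at 840 and 228, Ms4a2 at 321 and 178, and Prss34 at 4.86 and 2.00 CPM. Csf2rb was at 350 and 116 CPM. In experiment 2 these 12 cells held a median of 41740.5 UMIs and 4 were hashtag doublets.

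Kit was counted in members with and without Prss34, at a cut that 23 and 21 members lay near. In experiment 1, 6 of 16 members with at least 2 UMIs of Prss34 (37.5%) also had 2 of Kit, against 21 of 30 without (70.0%). In experiment 2 these were 7 of 72 (9.72%) and 10 of 17 (58.8%). Among members with a single hashtag and Prss34, Kit reached 2 UMIs in 3 of 10 and 1 of 53. Members with at least 2 UMIs of Kit held a median of 30550 and 42296 UMIs, and those with fewer 29400 and 16403, so depth moved with Kit in experiment 2; its part was not tested.

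**Figure D3:**
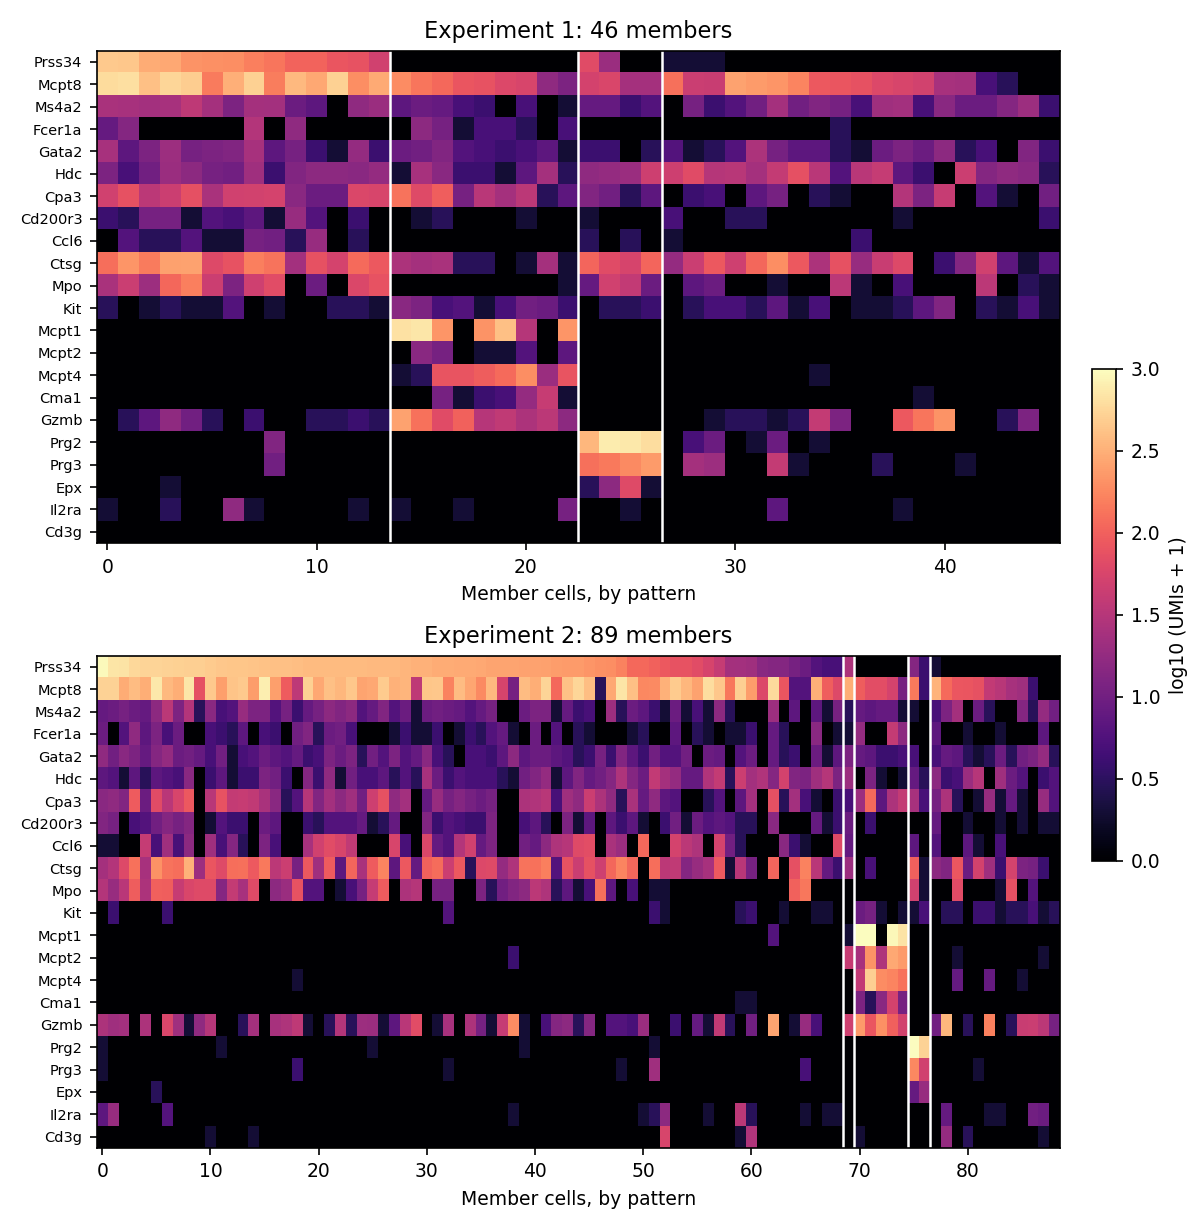
UMIs per member cell (colour, log10 of UMIs plus 1) of 22 genes, 1 column per cell, for experiment 1 above and experiment 2 below. White lines part the cells with the Prss34 pattern, the chymase pattern, the Prg2 pattern and none. In experiment 2 they also part the 1 cell with both Prss34 and chymases, after the Prss34 pattern. The Prss34 pattern makes up 14 of 46 cells above and 69 of 89 below.

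The share of members was 0.493% of kept cells in experiment 1 (0.361 to 0.657) and 0.871% in experiment 2 (0.7 to 1.07), a ratio of 1.77. With every cell thinned to 5000 UMIs, which left out 0 and 1 members, the shares were 0.252% and 0.667%. Culture time and library differ between the experiments and the mix of vectors in each is not known, so their parts cannot be told apart. For experiment 2 over experiment 1 within members, 125 of 5288 genes compared (2.36%) passed 2-fold upwards and 111 (2.1%) downwards. Within the other kept cells, 75 of 5342 (1.4%) were higher and 11 (0.206%) lower. The members' sums held far fewer UMIs, 1436032 and 2242168 against 243093599 and 293383769, so their ratios have wider counting intervals. Other scalings, which move the median log2 ratio from -0.13 to -0.01 (TMM) and 0.01 (DESeq2), gave 160 higher and 56 lower, and 165 higher and 52 lower. Over members with a single hashtag 253 were lower, and leaving out each hashtag of these in turn gave 141 to 227 higher and 233 to 389 lower, with both upper ends at hashtag 3 of experiment 2.

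The Prss34 pattern made up 77.5% of the members in experiment 2 and 30.4% in experiment 1. Over all members, Prss34 was 4.33-fold higher in experiment 2 (4.17 to 4.51) and Mcpt8 1.93-fold, while Gata2 was at 1.02 and Cpa3 at 0.971 times its level in experiment 1. Hdc was at 0.667 times and Ms4a2 at 0.803 times. Values are given beside those of the 16 and 72 members with at least 2 UMIs of Prss34, a comparison added after the data were seen. These sets still differ: 10 of the 16 and 53 of the 72 had a single hashtag. Median depth in the Prss34 pattern was 35651 and 16580 UMIs. The part of doublets and depth in the ratios was not tested, and the Prss34 ratio is taken in cells chosen by Prss34. In the members with Prss34, Prss34 was 2.54-fold higher (2.44 to 2.64) and Mcpt8 1.53-fold, and Hdc was 1.4-fold higher instead of lower.

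Chemokine genes were among the highest ratios. Ccl3 was at 9.75 CPM in members of experiment 1 and 157 in experiment 2, a ratio of 16.1 (9.44 to 29.7), against 4.51 in the other cells. Ccl6 was at 45.3 and 565 CPM, 12.5-fold, and Ccl9 at 75.2 and 289 CPM, 3.84-fold, against 2.81 and 1.33 in the other cells. Of 7 cytokine genes that passed, these were the 3 past 2-fold. Among members with Prss34 the ratios were 20.3 for Ccl3, 7.94 for Ccl6 and 2.72 for Ccl9.

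Other genes higher in experiment 2 were of mixed kinds. Slpi, a secreted protease inhibitor, was at 16.7 and 138 CPM, 8.25-fold over all members and 6.37-fold over those with Prss34. Spp1, osteopontin, was at 7.66 and 99.9 CPM. Fcer1g was 2.69-fold higher over all members and 2.68-fold over those with Prss34. Mcpt2 was at 25.8 and 371 CPM, and at 268 and 8732 CPM in the 9 and 5 chymase cells. It had UMIs in 6 of 46 and 9 of 89 members, and it was also higher in the other kept cells of experiment 2, at 0.0905 and 1.38 CPM. The MHC class II genes H2-Eb1, H2-Aa and Cd74 were 14.0-fold, 10.5-fold and 9.39-fold higher, but 1 cell held 31.6%, 43.1% and 36.2% of their UMIs in experiment 2, and they were 3.13-fold, 2.88-fold and 3.66-fold higher in the other cells too.

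Kit, the stem cell factor receptor, was among the 8 lowest ratios of experiment 2 to experiment 1. It was at 95.4 and 31.2 CPM, a ratio of 0.327 (0.242 to 0.44), against 0.504 in the other cells, and at 0.525 (0.285 to 0.982) among members with Prss34. Myc was at 0.354 times, against 0.527 in the other cells and 0.308 among members with Prss34. Slc45a3 was at 132 and 28.1 CPM, a ratio of 0.213. Among members with Prss34 it was 0.5 (0.243 to 1.05), an interval that reaches 1. Prg3 was at 549 and 116 CPM, beside 4 and 2 cells of the Prg2 pattern. Prss2, at 72.4 and 28.5 CPM, had 1 cell in each experiment with 77.9% and 73.4% of its UMIs, and its ratio of 0.394 turned to 1.37 among members with Prss34. Cep83 and Ipo5 were also among the 8 lowest, at 0.395 and 0.45 times.

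Gzmb changed with the subset. Over all members it was 1.34-fold higher in experiment 2, but among members with Prss34 it was at 75.9 and 779 CPM, 10.3-fold (7.67 to 14.0). In experiment 1 Gzmb stood at 5050 CPM in the chymase pattern, 814 in cells of no pattern and 83.3 in the Prss34 pattern. Runx1 was at 0.765 times over all members and 0.969 among those with Prss34, and Runx3 at 0.865 and 0.852.

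**Figure D4:**
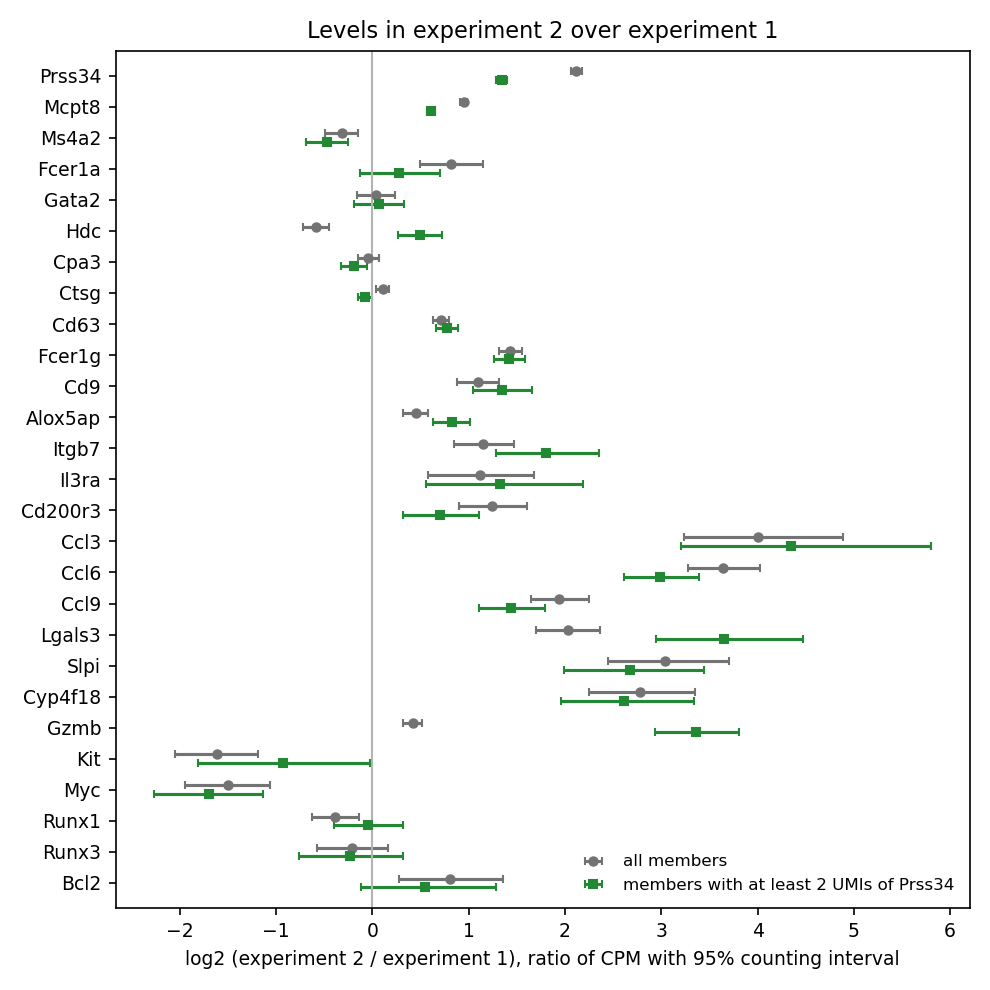
Ratio of CPM in experiment 2 to CPM in experiment 1 (log2 axis) for selected genes, as circles over all members and squares over members with at least 2 UMIs of Prss34, with 95% counting intervals. Ccl3, Ccl6 and Slpi lie far to the right in both sets, Gzmb moves from 1.34-fold to 10.3-fold, and Hdc crosses from lower to higher.

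Members were spread unevenly over hashtags. In experiment 1, hashtags 1 to 8 held 6, 4, 0, 2, 2, 5, 12 and 7 members, a share of 0% to 1.02% of their cells with a median of 0.394%. In experiment 2 they held 1, 2, 12, 26, 11, 13, 0 and 1, a share of 0% to 2.57% with a median of 0.665%. Hashtag 4 of experiment 2 was the highest, with 26 of 1011 cells (2.57%, 1.69 to 3.75). Hashtag 3 of experiment 1 and hashtag 7 of experiment 2 held none, with exact upper limits of 0.322% and 0.362%. In experiment 2, hashtags 3 to 6 each held between 11 and 26 members and the other hashtags at most 2. Each hashtag's vector and day are unknown, so these are shares of samples and not of conditions.

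**Figure D5:**
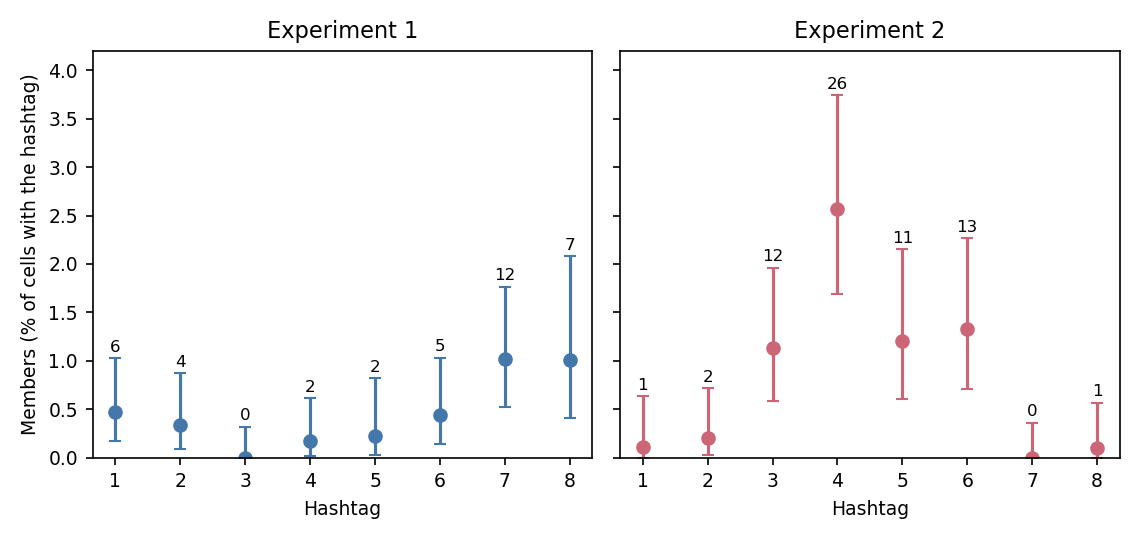
Members as a percentage of the kept cells of each hashtag (points, with 95% exact binomial intervals) in experiment 1 and experiment 2, with the number of members above each. Hashtags 3 to 6 of experiment 2 lie above hashtags 1, 2, 7 and 8 of that experiment, and hashtag 4 is the highest at 2.57%.

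Within the Prss34 members of experiment 2, levels differed between the hashtags that held them. Prss34 was at 7564, 24530, 15588 and 2727 CPM in hashtags 3, 4, 5 and 6, over 7, 23, 11 and 10 cells. Per cell it ran from 131 over a median of 8997 to 25093 CPM in hashtag 3, from 285 over 25469 to 41914 in hashtag 4, from 9202 over 16002 to 23350 in hashtag 5 and from 262 over 1688 to 8822 in hashtag 6. The cells of hashtag 6 thus all lay below the lowest cell of hashtag 5. Mcpt8 was closer, at 17462.5, 16819, 22800 and 17818 CPM.

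Hdc took another order, at 397, 238, 596 and 1422 CPM in hashtags 3, 4, 5 and 6. Mpo was at 1057, 1989, 1067 and 27.8 CPM and Cpa3 at 1026, 1453, 1377 and 256 CPM, lowest in hashtag 6 for both. Gzmb was at 1900, 1694, 90.5 and 300 CPM, but 1 of the 7 cells of hashtag 3 was at 9621 CPM. Its median per cell was 294, 1513, 60.6 and 155 CPM in that order, so hashtag 4 alone was high in its median cell. Fcer1a was highest in hashtag 4, at 270 CPM, against 79.4, 176 and 133. Runx1 was at 104, 106, 152 and 250 CPM, with counting intervals of 74.8 to 146 in hashtag 4 and 182 to 334 in hashtag 6, while Runx3 lay between 43.1 and 71.5 CPM with intervals that overlapped. Kit had UMIs in hashtag 6 alone of these 4, at 38.9 CPM, and 1 cell there had more than 1 UMI. That cell, with 4, had the Prg2 pattern. Cells of a hashtag share their culture, so these spreads are within 1 sample each.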

How the data were processed

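For each experiment an mRNA and a hashtag library were measured. The authors deposited raw UMI counts per gene and cell and per hashtag and cell (counts per the file headers, whole numbers). Per the submitters' processing notes they came from Cell Ranger 3.0.0 with the mm10 (GRCm38) reference; per the file headers 31053 gene IDs are listed, and read counting across near-identical genes is not given in the sources used here. Total counts over all barcodes were 246706921 and 296727412 UMIs, and over members 1436032 and 2242168.

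Barcodes passed at 500 or more genes and less than 10% mitochondrial UMIs. UMIs were summed over the cells of a group and given as CPM. Shares have exact Clopper-Pearson intervals, CPM exact Poisson intervals and ratios exact conditional intervals, at 95% and for counting error only. The ratio code was tested on simulated counts. Hashtags were called with Seurat 5.3.0 HTODemux (quantile 0.99); no other doublet caller was run, and doublets were kept. edgeR 4.0.16 (TMM) and DESeq2 1.42.0 gave scaling factors for alternatives only, in R 4.3.3. Other steps used Python 3.11.15, numpy 2.4.6, scipy 1.17.1 and pandas 2.3.3.

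No test was run, since each experiment is 1 library and the hashtags' conditions are not known. Named genes were the 6 rule markers, the listed genes, the 12 highest and 8 lowest by the smaller ratio of both experiments with at least 50 CPM, and the 8 highest and 8 lowest between experiments; a few chosen after their values were seen, such as Gzmb beside Prss34 and the protease patterns, are named too. Some genes that the rule names are not reported here. The members and all lists were chosen with earlier results of these data known. Promoters came from RefSeq, GRCm38.p6.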

Additional observations from a re-analysis of the deposited data

How the results depend on the processing

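The share of members in experiments 1 and 2 depended on the rule: 0.664% and 1.12% with 1 UMI per marker, 0.75% and 1.26% with 2 markers, 0.252% and 0.667% with cells thinned to 5000 UMIs, and 0.354% in experiment 1 with 4 markers. Counts of genes past the fold depended on the filter. Higher and lower genes in members against other cells were 433 and 524 in experiment 1 and 472 and 395 in experiment 2 at a filter of 5 CPM, 1398 and 8323, and 1587 and 7930, with no filter, and 84 and 48, and 97 and 20, at 4-fold. In experiment 2 the lower genes were 267 by the mean over cells and 225 over single hashtags. Between experiments, higher and lower genes within members were 420 and 417 at that filter, 2655 and 1379 with no filter, and 38 and 4 at 4-fold. The lower genes were 56 with TMM scaling, 52 with DESeq2 size factors, 242 by the mean over cells, 253 over single hashtags and 184 with 4 markers. Leaving out each hashtag in turn, among members with a single hashtag, gave 141 to 227 higher and 233 to 389 lower genes. Both upper ends came without hashtag 3 of experiment 2, and the cause was not tested. Alternatives added after seeing the data gave 201 lower genes in members with Prss34, and 283 higher and 389 lower in those with a single hashtag as well. Prss2, at 0.394 between experiments, reversed to 1.86 in cells of 1000 or more genes and less than 5% mitochondrial UMIs, to 1.37 in members with Prss34 and to 1.17 in those with a single hashtag; 1 cell held most of its UMIs. The highest share by hashtag stayed with hashtag 4 in experiment 2 under the alternatives run. No paired analysis was possible because each experiment is 1 library and no label pairs hashtags across experiments. Depth limits all genes of members more than those of other cells, by the summed UMIs given above.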

Other observations

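Cells with chymase transcripts were also found outside the members. In experiment 2, 17 other kept cells had at least 10 UMIs over Mcpt1, Mcpt2, Mcpt4 and Cma1, of which 15 reached 1 rule marker and 2 reached 2. They held 1663 UMIs of Mcpt1 and 350 of Mcpt2, but 26 of Mcpt4 and 0 of Cma1, and 94.8% of all Mcpt1 UMIs outside the members. All 17 had at least 2 UMIs of Gzmb and 6 had 2 of Cpa3. By hashtag, 9 were of hashtag 4, the hashtag with the most members, and 8 were called doublets. In experiment 1 there were 2 such cells.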
